A study of Mus musculus with 8 samples.

Results

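A set of 10 genes, most of them known from the nervous system, was examined in mouse kidney RNA: Miat, Astn1, Slc30a3, Ecel1, Hap1, Dclk2, Rtn4rl2, Atp9a, Tcf24 and Catsperg1. They are 10 of the 49315 genes counted, and they were chosen by their counts, because all 4 knockout libraries lie above all 4 control libraries. That comparison is therefore described here and not tested. The same rule was met by 1718 of 18485 genes tested, so the neural character of the 10 is not an outcome of it. Poly(A) RNA had been sequenced from frozen kidneys, 4 labelled control and 4 labelled conditional Kdm1a knockout. The protein made from Kdm1a is LSD1, a demethylase of histone H3. The age and strain of the animals, the recombinase and the cells it acts in are not given in the sources used here. Nor do the labels say that the kidneys of a group came from separate animals, so p values below measure only the spread between these libraries.

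LSD1 works in repressor complexes with the CoREST proteins and histone deacetylases, and one of the DNA-binding proteins that recruits them is REST. REST is known for keeping neuronal genes silent in tissues outside the nervous system. Catsperg1 is not a neural gene, since it encodes an auxiliary subunit of CatSper, the calcium channel of sperm, and Atp9a is active in many tissues. The name neural-type thus fits most of the group by textbook function and not all of it.

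The libraries held 19524945 to 28544511 counts. Kdm1a itself was at 110, 112, 120 and 110 counts per 1000000 (CPM, on TMM-scaled library sizes) in control replicates 1 to 4 and at 94.0, 95.3, 90.9 and 94.2 CPM in knockout replicates 1 to 4. The groups did not overlap, and the log2 fold change was −0.27 (SE 0.05, edgeR adjusted p 0.0194, passed in 11 of 17 alternative fits). The counts cover the whole gene, and which exons were deleted is not given in the sources used here. Over all 18485 genes tested, 14.9% passed an edgeR adjusted p of 0.05, with 6.61% higher and 8.27% lower in the knockout. Of 12 kidney markers, the nephron lineage factors Pax2 and Pax8 and the tubule cadherin Cdh16 were above 100 CPM in every library. Umod, of the thick ascending limb, was at 27.6 to 293 CPM in controls and at 0.0502 to 12.8 CPM in knockouts, and Kap, of the proximal tubule, was at 0 in knockout replicate 2. Of the 12, 6 fell in the edgeR test, and their sum was 1184 to 3417 CPM in controls and 508 to 1665 CPM in knockouts. In bulk tissue, fewer cells of a type and less RNA per cell cannot be told apart. Control replicate 2 was the lowest control in this sum and knockout replicate 3 the highest knockout, and the part of tissue makeup in the results below was not tested. Y-linked transcripts summed to 0.760 to 2.63 CPM in control 2 and knockouts 1 and 4 and to 229 to 289 CPM in the other 5 libraries, so the libraries of a group were not of one sex by this measure.

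Promoters from RefSeq (GRCm38.p6, 250 bases before to 50 after the start site) were found for 9 of the 10 genes, all but Tcf24. Where a gene had several, as Slc30a3, Hap1, Atp9a and Catsperg1 did, the one nearest to the deposited start of the gene was used. The 4 below are shown because these genes were higher together while their promoters differ in composition. Capitals mark the CpG dinucleotides, and each sequence reads 5′ to 3′ along the gene.
Miat chr5:112228899-112229198 minus strand: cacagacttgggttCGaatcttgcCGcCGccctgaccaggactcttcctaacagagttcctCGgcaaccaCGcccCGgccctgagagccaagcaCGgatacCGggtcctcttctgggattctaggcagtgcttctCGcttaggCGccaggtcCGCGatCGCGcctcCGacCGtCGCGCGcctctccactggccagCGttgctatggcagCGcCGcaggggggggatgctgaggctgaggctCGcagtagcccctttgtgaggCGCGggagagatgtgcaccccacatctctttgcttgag
Rtn4rl2 chr2:84886643-84886942 minus strand: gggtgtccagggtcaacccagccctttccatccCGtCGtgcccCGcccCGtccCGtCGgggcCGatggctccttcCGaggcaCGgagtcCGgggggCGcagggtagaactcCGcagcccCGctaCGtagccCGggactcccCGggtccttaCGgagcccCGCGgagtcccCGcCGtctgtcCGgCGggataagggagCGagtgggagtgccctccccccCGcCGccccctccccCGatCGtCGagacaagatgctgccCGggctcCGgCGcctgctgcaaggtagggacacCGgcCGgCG
Astn1 chr1:158362054-158362353 plus strand: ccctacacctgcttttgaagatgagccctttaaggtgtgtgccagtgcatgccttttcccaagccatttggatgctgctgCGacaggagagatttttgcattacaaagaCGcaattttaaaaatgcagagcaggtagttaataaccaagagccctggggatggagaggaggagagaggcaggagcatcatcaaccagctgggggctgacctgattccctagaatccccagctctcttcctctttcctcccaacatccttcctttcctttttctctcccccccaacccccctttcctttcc
Ecel1 chr1:87156307-87156606 minus strand: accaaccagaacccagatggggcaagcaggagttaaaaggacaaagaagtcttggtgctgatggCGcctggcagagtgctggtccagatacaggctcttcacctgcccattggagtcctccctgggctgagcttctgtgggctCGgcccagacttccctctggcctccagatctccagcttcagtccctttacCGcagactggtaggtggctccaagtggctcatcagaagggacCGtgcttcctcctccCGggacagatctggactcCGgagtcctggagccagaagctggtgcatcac

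The promoter of Rtn4rl2 held 35 CpG dinucleotides, more than 93.0% of all promoters of this length, and that of Miat held 25. The promoter of Astn1 held 2 and that of Ecel1 held 6, against a median of 7 over 32851 promoters. Dclk2 (27), Atp9a (21), Hap1 (17) and Slc30a3 (15) were CpG-rich as well, and Catsperg1 had 8. The other promoters of Atp9a held 3, 6 and 65. High and low CpG content thus both occurred among the genes with the largest folds. The core of RE1, the element bound by REST, was searched on both strands as CAGCACC and GGACAG joined by 2 bases. It matched 0 of the 9 promoters and 0.0365% of all promoters. Its left part alone, CAGCACC, matched that of Ecel1 (7.14% of all promoters), and its right part alone, GGACAG, those of Slc30a3, Ecel1, Hap1 and Rtn4rl2 (22.2% of all promoters), and also 1 of the more distant promoters of Atp9a. Every full match holds both parts, so these searches overlap. AATCAC, a core recognised by the LSD1 partners GFI1 and GFI1B, matched 0 of the 9 and 10.4% of all. These are letter matches in a window of 300 bases and say nothing of elements elsewhere.

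All 4 knockouts lay above all 4 controls in each of the 10 genes, as the choice required, and the same held for 9.29% of all genes tested (1718 genes), while 9.58% lay entirely below. Of these 1718, 264 (1.43% of genes tested) also had a mean of at least 1 CPM and a knockout mean of at least 2 times the control mean, 7 of the 10 among them. The distance between the groups varied widely. The lowest knockout was 7.10 times the highest control for Miat, in place 2 among all genes tested, and 1.38 times for Atp9a, in place 216. Just outside the rule, Pts had a lowest knockout of 60.993 CPM against a highest control of 60.995 CPM. The plot of the 10 genes by library shows these distances.

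**Figure D1:**
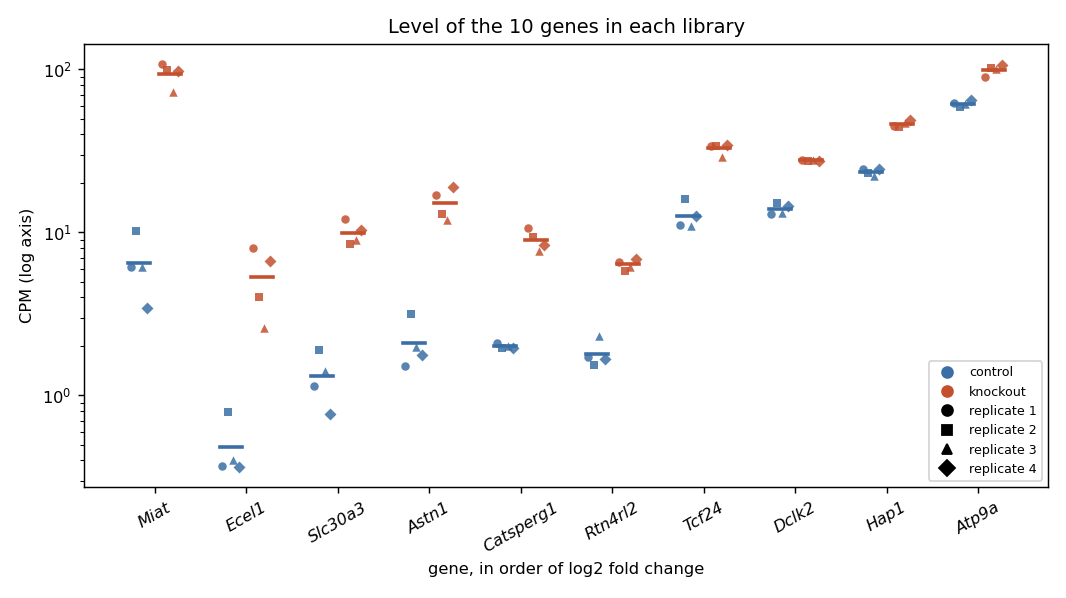
CPM (log axis) of each of the 10 genes in 8 libraries, controls in blue and knockouts in orange, marker shape giving the replicate and bars the group means. The groups are separate in every gene, from Miat (72.4 CPM in the lowest knockout against 10.2 CPM in the highest control) to Atp9a (89.5 against 65.1 CPM).

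Miat is a long non-coding RNA kept in the nucleus, first known from neurons and retina, which binds splicing factors. It lies on the minus strand of chromosome 5, from 112213228 to 112229395 (ENSMUSG00000097767, GRCm38). Its level was 6.10, 10.2, 6.17 and 3.45 CPM in control replicates 1 to 4. In knockout replicates 1 to 4 it was 108, 99.0, 72.4 and 98.4 CPM. The mean went from 6.48 ± 2.78 to 94.4 ± 15.3 CPM (SD, n = 4 each), a ratio of 14.6 and the largest of the 10. Control replicate 2 was the highest control and knockout replicate 3 the lowest knockout, so the libraries nearest to each other still differed several-fold.

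Astn1, Ecel1 and Rtn4rl2 encode cell-surface proteins that shape how neurons migrate and connect. Astn1 (chromosome 1, 158362273 to 158691781, plus strand) encodes astrotactin 1, which joins migrating neurons to glial fibres. It was at 1.52, 3.15, 1.98 and 1.77 CPM in the controls and at 17.02, 13.1, 11.9 and 18.9 CPM in the knockouts. The ratio of means was 7.23, and knockout replicates 1 and 4 were higher than 2 and 3. Ecel1 (chromosome 1, 87147655 to 87156521, minus strand) encodes a membrane peptidase of the neprilysin family needed for motor nerves to branch in muscle. Its controls were at 0.369, 0.788, 0.404 and 0.364 CPM, which stood for 44 counts in all. The knockouts were at 8.02, 4.02, 2.59 and 6.65 CPM. Ecel1 varied most among knockouts, with a coefficient of variation of 46.3%, and its mean in knockout replicates 1 and 4 was 2.22 times that in 2 and 3.

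Rtn4rl2 (chromosome 2, 84871924 to 84886710, minus strand) encodes a receptor of the Nogo receptor family, which curbs axon growth. It was at 1.72, 1.53, 2.30 and 1.68 CPM in the controls and at 6.63, 5.82, 6.16 and 6.91 CPM in the knockouts. The mean went from 1.81 ± 0.338 to 6.38 ± 0.483 CPM (SD, n = 4 each), and the knockouts lay close together.

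Slc30a3, Hap1 and Atp9a act on vesicles and endosomes. Slc30a3 (chromosome 5, 31086106 to 31108237, minus strand) encodes the transporter that fills synaptic vesicles with zinc. Its controls were at 1.15, 1.90, 1.41 and 0.773 CPM and its knockouts at 12.04, 8.48, 8.93 and 10.4 CPM. The ratio of means was 7.61, with knockout replicates 2 and 3 the lower pair but each more than 4 times the highest control (4.46 and 4.70 times). Hap1 (chromosome 11, 100347327 to 100356128, minus strand) encodes a huntingtin-associated adaptor of transport along microtubules. It was at 24.3, 23.0, 22.3 and 24.4 CPM in the controls and at 44.7, 44.1, 46.6 and 48.6 CPM in the knockouts. The coefficient of variation was 4.28% and 4.44% in the 2 groups, and the ratio of means was 1.96. Atp9a (chromosome 2, 168634438 to 168742409, minus strand) encodes a lipid-flippase-like ATPase of recycling endosomes. It was at 61.9, 58.7, 60.9 and 65.1 CPM in the controls and at 89.5, 101, 101 and 106 CPM in the knockouts. This was the smallest ratio of the 10, at 1.61.

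Dclk2 (chromosome 3, 86786151 to 86920852, minus strand) encodes a kinase with doublecortin domains that bind microtubules. Its controls were at 12.99, 15.3, 13.1 and 14.5 CPM and its knockouts at 27.9, 27.4, 27.8 and 27.4 CPM. The 4 knockouts were nearly identical, with a coefficient of variation of 0.905%, and the ratio of means was 1.98. Tcf24 (chromosome 1, 9960163 to 9967932, minus strand) encodes a transcription factor of the basic helix-loop-helix class. It was at 11.1, 16.0, 10.98 and 12.6 CPM in the controls and at 34.0, 33.9, 28.9 and 34.3 CPM in the knockouts, a ratio of 2.59. Control replicate 2 stood above the other controls and knockout replicate 3 below the other knockouts.

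Catsperg1 (chromosome 7, 29181321 to 29214035, minus strand) was at 2.09, 1.95, 2.02 and 1.95 CPM in the controls, the narrowest controls of the group by coefficient of variation (3.30%). The knockouts were at 10.6, 9.39, 7.68 and 8.35 CPM, and the ratio of means was 4.50. Its neighbouring copy Catsperg2 shares 43.0% of the 50-base windows of the Catsperg1 transcripts, so reads could be split or lost between them. Catsperg2 itself was at 0.0202 ± 0.0404 CPM in controls and 0.116 ± 0.0507 CPM in knockouts (SD, n = 4 each), far below Catsperg1.

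Fitted log2 fold changes ran in the order Miat 3.86 (SE 0.29), Ecel1 3.46 (0.43), Slc30a3 2.92 (0.26), Astn1 2.85 (0.26), Catsperg1 2.17 (0.15), Rtn4rl2 1.81 (0.17), Tcf24 1.37 (0.13), Dclk2 0.99 (0.08), Hap1 0.97 (0.06) and Atp9a 0.69 (0.07). The median was 1.99, while that of all genes tested was 0.00440. Per kilobase of exon, Atp9a was the highest in both groups, at 10.4 ± 0.445 CPM per kilobase in controls and 16.8 ± 1.18 in knockouts (SD, n = 4 each). Hap1 was second in both. Atp9a, Hap1, Tcf24 and Dclk2, the 4 highest by this measure in controls, had the 4 smallest folds. Miat moved from the sixth place, at 0.698 ± 0.299 CPM per kilobase, to the third, at 10.2 ± 1.64. Its knockout libraries overlapped those of Tcf24 in this measure. Among controls the last 6 places, from Rtn4rl2 down to Ecel1, each overlapped the next in single libraries, and so did Dclk2 and Rtn4rl2. In knockouts Astn1, Ecel1 and Catsperg1 held the last 3 places and overlapped in turn. The plot of level per exon length gives all 10.

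**Figure D2:**
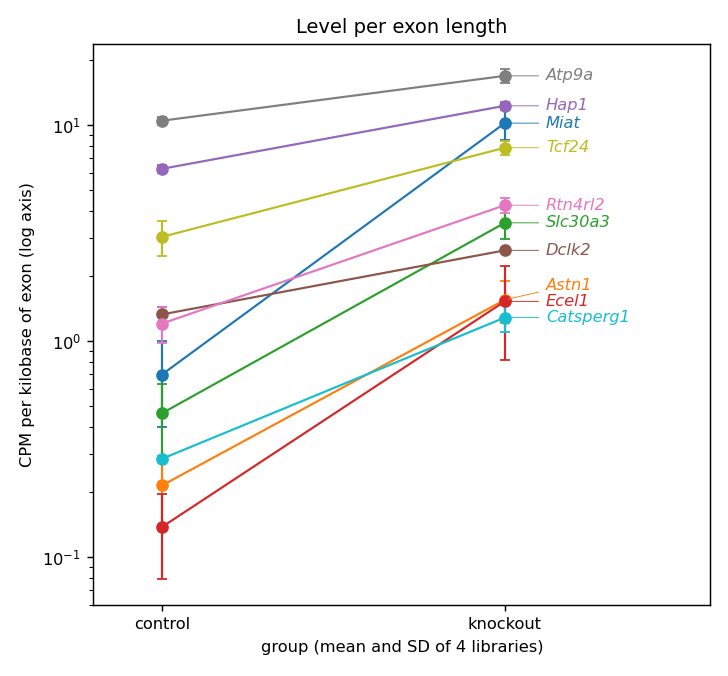
Mean CPM per kilobase of exon (log axis) in controls and knockouts, with bars for the SD of 4 libraries. Atp9a and Hap1 lead in both groups, and Miat crosses from 0.698 to 10.2 CPM per kilobase.

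Different profiles were visible among the 10 genes. In Miat, Astn1, Slc30a3, Ecel1, Dclk2 and Tcf24, control replicate 2 was the highest control, by 2.08 times the mean of the other controls in Ecel1 and 1.13 times in Dclk2. In Hap1, Rtn4rl2, Atp9a and Catsperg1 it was not, with ratios of 0.805 to 0.974. Knockout replicate 3 was the lowest knockout in 5 genes, knockout replicate 2 in 4, and the highest knockout was always replicate 1 or 4 (5 genes each). Coefficients of variation among knockouts had a median of 11.1% over the 10 genes and 10.1% over 16216 tested genes whose mean reached 1 CPM. Among controls these medians were 18.7% and 12.99%.

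Transcripts of adrenal gland and neurons were unevenly spread over the libraries, so the 10 genes were set beside them. Markers of the adrenal medulla, 12 genes in all, summed to 35.98 to 74.8 CPM in controls and to 296, 30.3, 31.9 and 234 CPM in knockout replicates 1 to 4. Adrenal cortex markers, 11 genes, summed to 3512 and 415 CPM in knockout replicates 1 and 4, to 228 CPM in control replicate 4 and to 41.0 to 64.4 CPM in the other 5 libraries. Neuron markers, 18 genes, summed to 270 to 415 CPM in controls and to 540, 403, 407 and 664 CPM in knockouts 1 to 4. Ncam1 was the largest part of these sums, at 142 to 183 CPM in controls and 167, 152, 190 and 169 CPM in knockouts 1 to 4. Whether the sum follows the amount of neurons was not tested. Tubb3, a tubulin of neurons, was at 1.82 to 2.42 CPM in controls, at 25.6 and 38.6 CPM in knockouts 1 and 4 and at 2.16 and 1.31 CPM in knockouts 2 and 3. Of the 18 neuron markers, 3 (Uchl1, Gap43 and Isl1) lay above every control in both knockouts 2 and 3, and the rest did not. For comparison, 2949 of 19154 genes tested had knockouts 2 and 3 above control replicates 1 to 3. That rule is looser, since control replicate 4 was left out, and no excess of neuron markers is read from the 3. Uchl1, a ubiquitin hydrolase abundant in neurons, was at 60.7 and 64.4 CPM in knockouts 2 and 3, against 51.6 CPM in the highest control. Gap43, a protein of growing axons, was at 7.13 and 8.75 CPM against 5.86 CPM, and Isl1, a transcription factor of sensory, motor and sympathetic neurons, at 2.01 and 0.934 CPM against 0.835 CPM. None of the markers in these 3 lists had 0 counts throughout a group. Glia markers, 10 genes, summed to 53.2 to 57.6 CPM in controls and 53.7 to 70.9 CPM in knockouts.

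The 10 genes were high in all 4 knockouts, as the choice required, so their height in knockouts 2 and 3 is a description. In knockouts 2 and 3 the sum of adrenal medulla markers lay below that of every control. By gene, 4 of the 12 (Th, Pnmt, Ddc and Slc18a1) were below every control in both, and Npy, at 6.22 and 8.62 CPM, was above every control. Slc18a1, the marker with the highest mean in controls, was lower in all 4 knockouts (0.703 to 4.06 CPM) than in every control (5.43 to 27.2 CPM). Whether the sum follows the amount of medulla was not tested. In knockouts 2 and 3 Miat was 9.70 and 7.10 times, Ecel1 5.09 and 3.29 times and Astn1 4.14 and 3.77 times the highest control. Against control replicates 1 to 3, which have few adrenal cortex transcripts, the mean of knockouts 2 and 3 was 11.4 times as high for Miat, 6.35 for Ecel1, 5.85 for Slc30a3, 5.63 for Astn1 and 4.23 for Catsperg1. For Rtn4rl2 it was 3.24 times, for Tcf24 2.47, for Dclk2 2.0, for Hap1 1.95 and for Atp9a 1.67. With control 4 and knockouts 1 and 4 left out, the fitted log2 fold change of Ecel1 went from 3.46 to 2.66, and the median of the 10 from 1.99 to 1.88. Adding the Y-linked level to the model gave a median of 1.98, and adding the adrenal cortex level gave 1.94.

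A list of 28 neuronal genes bound by REST was read in the same way. Of the 26 tested, 4 passed the edgeR test, all higher (6.61% of all genes tested were), and the median log2 fold change was 0.59. Over all 28 genes the mean log2 CPM was 1.29 to 1.599 in controls, 2.499 and 2.78 in knockouts 1 and 4, and 1.57 and 1.45 in knockouts 2 and 3. All knockouts lay above all controls in 2 of the 26, against 9.29% of all genes tested. Bex1 (0.35, adjusted p 0.0287), Scn3b (2.85, adjusted p 0.0311), Nefh (0.84, adjusted p 0.0423) and Stmn2 (1.94, adjusted p 0.0460) were the 4 called by edgeR. The list shares 5 genes with the neuron markers (Nefm, Snap25, Stmn2, Syp and Tubb3) and 2 with the adrenal medulla markers (Chga and Chgb), so part of any common movement is fixed by the lists. Its other 21 genes had a mean log2 CPM of 0.90 to 1.117 in controls, 1.74 and 1.98 in knockouts 1 and 4, and 1.14 and 1.08 in knockouts 2 and 3, and 3 of the 19 tested were called higher by edgeR. For the whole list the calls were 0 with the adrenal covariate (6 at an unadjusted p under 0.05) and 12 without knockout replicate 3. Over all genes tested, 1205 of 18485 were called with the adrenal covariate and 3192 of 18725 without knockout replicate 3. Without control 1, 3 or 4 or knockout 1 or 4 the calls in the list were also 0 (10 to 14 at an unadjusted p under 0.05). Over all genes tested, 4859 to 5319 of 18672 to 19020 were at such a p in these fits, and 5482 of 18485 with the adrenal covariate. Without knockout replicate 2 there was 1 call. The plot of list means by library shows all 4 lists.

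**Figure D3:**
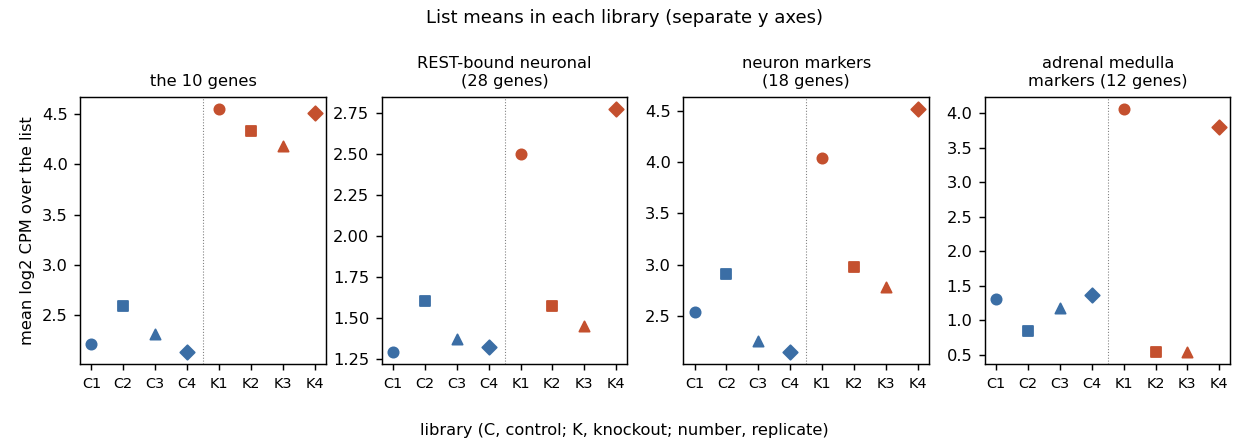
Mean log2 CPM of the 10 genes and of 3 other lists in each library, controls in blue and knockouts in orange, with a separate y axis per panel. The 10 genes, chosen for being higher in every knockout, are at 4.18 to 4.55 in all knockouts and 2.13 to 2.59 in controls. The REST-bound list is at 2.499 and 2.78 in knockouts 1 and 4 and at 1.57 and 1.45 in knockouts 2 and 3.

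Each gene was then set beside its relatives or known partners, 97 genes of which 85 were tested. Of these 85, 7 rose and 3 fell in the edgeR test, where 6.61% of all genes rose and 8.27% fell, and their median log2 fold change was 0.03. The counts moved with single libraries, as did those of all genes. Without control replicate 2 there were 29 calls (7084 of 18953 over all genes tested). Without knockout replicate 3 there were 16 (3192 of 18725 over all genes tested). The other fits that left out a library gave 0 to 3 (21 to 26 at an unadjusted p under 0.05). In those other fits 4859 to 5319 of 18672 to 19020 genes tested were at such a p. Zinc transporters other than Slc30a3 showed 1 rise and 3 falls among 21 tested. Slc39a5, a zinc importer of epithelia, fell from 30.2 ± 15.5 to 4.78 ± 2.496 CPM (adjusted p 0.0179). Slc30a1 and Slc39a7 changed by −0.40 and −0.52 on the log2 scale (edgeR adjusted p 0.0331 and 0.0492), and Slc39a2 by 0.91 (adjusted p 0.0449) at under 2 CPM.

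Of the Nogo receptor family and its ligands, 1 of 7 tested was called by edgeR. Rtn4rl1, the closest relative of Rtn4rl2, rose from 8.53 ± 1.32 to 13.5 ± 1.23 CPM (SD, n = 4 each, edgeR adjusted p 0.0215). In the doublecortin family, Dcx, which marks young neurons, rose from 16.1 ± 8.19 to 35.8 ± 7.71 CPM (edgeR adjusted p 0.0452), 1 of 5 tested, while Dclk1 was at 37.2 ± 3.93 and 34.8 ± 6.25 CPM. The Dcx libraries overlapped between groups, with control replicate 2 at 27.5 CPM above knockout replicate 3 at 25.4 CPM. Of 16 flippases and their subunits, Atp8a1 rose by 0.71 (edgeR adjusted p 0.0202). Atp9b, the nearest relative of Atp9a, was at 77.6 ± 1.44 and 78.2 ± 3.18 CPM, a log2 fold change of 0.01 (SE 0.05).

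Among 9 partners of HAP1 in transport, Kif5c and Ahi1 rose by 1.03 and 0.52 (edgeR adjusted p 0.0312 and 0.0393). Kif5c encodes a neuronal kinesin, and AHI1 is a stable partner of HAP1. Among the RNAs and splicing proteins set beside Miat, 1 of 7 was called by edgeR. This was Meg3, an imprinted long non-coding RNA, at 121 ± 77.7 and 383 ± 70.2 CPM (edgeR adjusted p 0.0277). By edgeR 0 were called among 5 peptidases related to Ecel1 (3 at an unadjusted p under 0.05, 3 called by DESeq2). Over all 18485 genes tested, 6489 were at such a p in edgeR, and DESeq2 called 4506. Of the peptidases, Mme and Ece1 had log2 fold changes of −0.50 (SE 0.15) and 0.18 (SE 0.06). CatSper subunits (6 tested) and basic helix-loop-helix factors related to Tcf24 (8 tested) had 0 calls by edgeR, 0 at an unadjusted p under 0.05 and 0 by DESeq2. Catsperd and Catsper2 had log2 fold changes of 0.23 (SE 0.16) and 0.20 (SE 0.23), and Tcf21 and Scx of 0.06 (SE 0.11) and −0.15 (SE 0.14). Astn2 was at 3.61 ± 0.526 and 4.85 ± 0.555 CPM, with an edgeR adjusted p of 0.105.

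**Figure D4:**
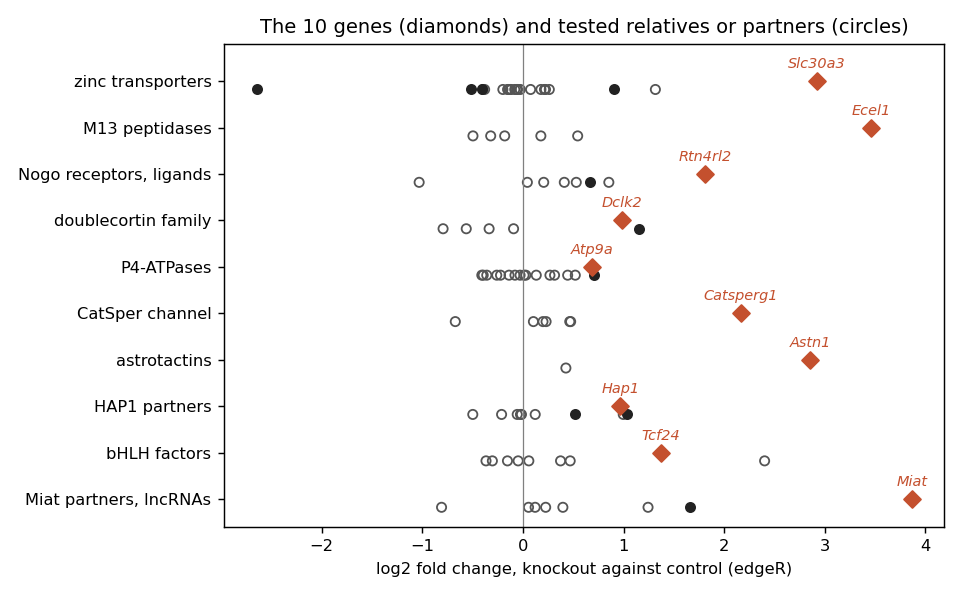
Log2 fold change (edgeR) of the 10 genes (orange diamonds) and of their tested relatives or partners (circles, filled where the adjusted p is under 0.05). Most circles lie near 0, and the filled ones range from −2.65 for Slc39a5 to 1.66 for Meg3.

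The partners of LSD1 were read in the same fit, together with its relative Kdm1b. Of the 12 genes tested, 4 were called by edgeR (3 higher, 1 lower), against 14.9% of all genes. Rcor2, a CoREST protein, rose from 21.6 ± 3.02 to 30.8 ± 1.04 CPM (SD, n = 4 each, edgeR adjusted p 0.0198). Zmym3, a zinc finger protein of LSD1 complexes, changed by 0.22 (edgeR adjusted p 0.0405). Kdm1b, the related demethylase LSD2, changed by −0.40 (edgeR adjusted p 0.0346). Without control replicate 2 there were 8 such calls (7084 of 18953 over all genes tested). Without control 3 or 4 or knockout 1, 2 or 4 there were 0 (6 or 7 at an unadjusted p under 0.05). Over all genes tested, 4859 to 5319 of 18672 to 19020 were at such a p in those fits. Rest was at 76.9 ± 20.8 CPM in controls and 92.3 ± 9.97 CPM in knockouts (SD, n = 4 each, edgeR adjusted p 0.289).

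The nearest tested gene on each side of the 10 genes, 20 genes at 0.620 to 452 kb, were read for changes next to the 10. Of the 20, 1 rose and 1 fell in the edgeR test, against 6.61% and 8.27% of all genes, and the median log2 fold change was −0.08. Brinp2, a neural gene whose protein shares a domain with the astrotactins, starts on the opposite strand 5.95 kb from Astn1. Its mean rose from 0.504 ± 0.193 CPM to 1.51 ± 0.846 CPM (SD, n = 4 each), a log2 fold change of 1.595 (SE 0.44, edgeR adjusted p 0.0428). Its libraries overlapped, since knockout replicate 2 was at 0.703 CPM and control replicate 2 at 0.788 CPM. Zfp64, 151 kb from Atp9a, changed by −0.28 (edgeR adjusted p 0.0497). Psmd8, the proteasome gene next to Catsperg1, had a log2 fold change of −0.20 (edgeR adjusted p 0.136). Brinp2 was called in 8 of 17 alternative fits and Zfp64 in 5. Without control replicate 2, 9 neighbours were called (7084 of 18953 over all genes tested), and without each other library 0 to 2 (4 to 8 at an unadjusted p under 0.05). Over all genes tested, 4859 to 6886 of 18672 to 19020 were at such a p in those other fits.

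**Figure D5:**
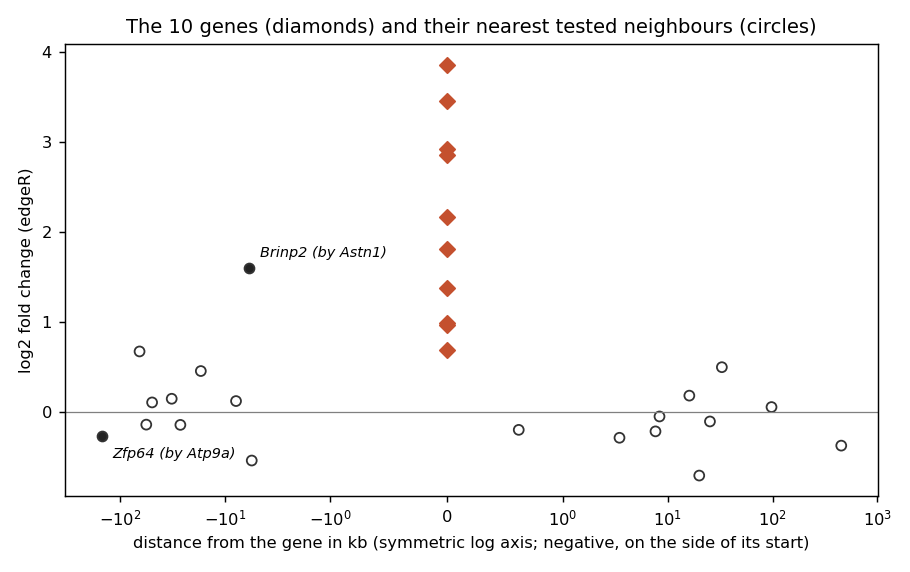
Log2 fold change (edgeR) of the 10 genes (orange diamonds, at distance 0) and of the nearest tested gene on each side, against distance in kb (symmetric log axis, negative on the side of the gene's start). The circles lie between −0.71 and 1.595, and Brinp2 and Zfp64, filled, passed the edgeR test.

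Overlapping genes contributed little by their own counts. Gm26953 is antisense to Miat and shares 2260 exon bases with it. It was at 0 to 0.0410 CPM in controls and 0.138 to 0.251 CPM in knockouts, so it too was higher in every knockout. E330040D14Rik, antisense to Tcf24, was at 0.318 CPM or less. Because the strand setting of the counting is not stated, reads of these pairs cannot be told apart. In Astn1, Slc30a3, Ecel1, Hap1, Dclk2, Rtn4rl2 and Atp9a, 0 of the 50-base transcript windows occur in another gene's transcripts.

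Over the 8 libraries, the 5 genes most like the mean profile of the 10 were Ptpn5, Tacr1, Tceal6, Fndc3c1 and Igsf1, by root mean square distance of centred log2 CPM among 14246 genes (0.193, 0.222, 0.222, 0.254 and 0.261, against a median of 1.07). They were picked for this likeness, so their levels are a description. Ptpn5, a neuronal tyrosine phosphatase, went from 2.42 ± 0.617 to 8.50 ± 0.783 CPM (SD, n = 4 each). Tacr1, the receptor of substance P, went from 0.675 ± 0.235 to 2.54 ± 0.205 CPM. Of the 10 genes themselves, Catsperg1 was the closest to the mean profile (0.166) and Miat the farthest (0.970).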

How the data were processed

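Counts per gene were analysed for 4 control and 4 Kdm1a conditional knockout kidneys. Raw read counts, deposited by the authors as whole numbers and not normalized, came with gene coordinates and exon length in bases (per the file headers). Per the submitters' processing notes, the tools named are Trimmomatic 0.36, STAR 2.5.2b and featureCounts of Subread 1.5.2, with GRCm38. The strand setting and the treatment of reads matching several genes are not given in the sources used here. Gene symbols came from GENCODE M21 for 49056 of 49315 IDs. A single count stood for 0.0350 to 0.0512 CPM, and intervals of counting were not drawn.

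Counts were scaled by TMM and filtered with filterByExpr (18485 genes). The genotype contrast was fitted in edgeR 4.0.16 (R 4.3.3; quasi-likelihood test) without covariates, and p values were adjusted by Benjamini-Hochberg over all genes tested. A called gene has an adjusted p under 0.05. Log2 CPM used a prior count of 2. On data simulated for the 18485 genes the fit recovered 83% of 100 genes changed 1 log2 unit and 100% of those changed 3 units. The simulation drew each gene independently, without the differences in tissue makeup and sex between these libraries, so these rates need not hold here. Alternatives were DESeq2 1.42.0, its size factors, 2 filters, a replicate block, Y-linked and adrenal cortex covariates and libraries left out. The 10 genes and all lists were chosen with earlier results of these data known. Named genes are the 10, Kdm1a, up to 4 called genes per list in order of p (otherwise the 2 most abundant) and the 5 nearest profiles. Marker lists were read in all libraries and not tested as sets. Catsperg2, the markers given by gene, Atp9b, Dclk1, Hand2, Psmd8, Gm26953, E330040D14Rik, Pts and the LSD1 partners were named after their values were seen. The values of 1 gene are not reported here.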

Additional observations from a re-analysis of the deposited data

Results flagged for a closer look

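A library stood apart from the other 3 of its group by Dixon's criterion for 4 samples in 2 of the 20 groups examined, and chance gives about 1 in 20. Ecel1 was at 0.788 CPM in control replicate 2, against 0.364 to 0.404 CPM in the other controls. Tcf24 was at 28.9 CPM in knockout replicate 3, against 33.9 to 34.3 CPM in the other knockouts. Control replicate 2 had the lowest sum of kidney markers of the controls (1184 CPM) and knockout replicate 3 the highest of the knockouts (1665 CPM), and the part of this in the values was not tested.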

How the results depend on the processing

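The sign of the 10 genes' log2 fold changes is fixed by how they were chosen, so the 17 alternative fits bear only on size. Their median ran from 1.88 to 2.06 (1.94 to 2.06 with 1 library omitted, 1.99 with the replicate block). Ecel1 ranged most, from 2.66 to 4.02. Counts of calls were less steady. Leaving out a library gave 153 to 7084 called genes, against 2751 with all, and 0 to 9 neighbours against 2. Relatives and partners numbered 0 to 29 against 10 and REST-bound genes 0 to 12 against 4. LSD1 partners, Kdm1b included, numbered 0 to 8 against 4. Without control replicate 2 the counts in this order were 7084, 9, 29, 6 and 8, and without knockout replicate 4 they were 153, 0, 0, 0 and 0 (5035, 4, 21, 10 and 6 at an unadjusted p under 0.05). With control 2 and knockout 3 left out together they were 7903, 11, 37, 16 and 9. With control 4 and knockouts 1 and 4 left out together they were 1, 0, 0, 0 and 0 (2378, 0, 8, 2 and 1 at an unadjusted p under 0.05), in 3 against 2 libraries. The adrenal covariate gave 1205, 0, 2, 0 and 1 (5482 of all genes, 6 neighbours and 6 REST-bound genes at an unadjusted p under 0.05). DESeq2 gave 4506, 4, 21, 12 and 6. Neighbours called were 1 with the Y-linked covariate, 1 without a filter and 1 with the replicate block, and LSD1 partners were 2 without a filter. The replicate block called 3229 genes, 15 relatives and partners, 4 REST-bound genes and 4 LSD1 partners. Same-numbered libraries did not deviate together throughout (correlations −0.11, 0.33, 0.23 and −0.06), and not every library correlated best with its own number, so numbers were not treated as pairs. Genes with all knockouts above all controls numbered 1718 with every library, 1910 to 4213 with 1 left out, 5015 without control 2 and knockout 3, and 2949 without control 4 and knockouts 1 and 4. The cause of these shifts was not tested, and each reduced fit also had fewer libraries. Low control counts, such as 44 for Ecel1 and 121 for Slc30a3, limit the precision of those folds.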
